A study of Mus musculus with 6 samples.

Results

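The regions described here are those of mouse chromosome 11 in a list of DNA sites recovered with the long noncoding RNA Meg3. They were chosen by their chromosome alone, at all widths, and number 586 of the 9010 listed regions, or 586 of the 9005 on nuclear chromosomes. The 20 regions between 3.0 and 3.1 Mb, called the proximal cluster below, are described apart from the other 566. All positions are on the mm9 build, and starts count from 1.

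The material was MIN6-4N, a mouse insulinoma line derived from pancreatic beta cells. The list carries the code of clone M5, 1 stable clone transfected with pcDNA3.1-Meg3 and grown in G418 at 500 µg/ml. The comparison clone, V3, carries the empty pcDNA3.1 vector and shares the parental line, the transfection and the G418 selection, and its libraries were not analysed here. Per the labels, M5 chromatin fixed with 1% glutaraldehyde gave 3 libraries, namely an input without probe, a pull-down with the odd-numbered Meg3 probes and a pull-down with the even-numbered probes. None of these libraries has a replicate, so the values below carry no spread between samples, and no test between groups could be made. Whether a listed region was recovered by 1 probe pool or by both is not given in the sources used here.

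Chromatin isolation by RNA purification (ChIRP) cross-links an RNA to the chromatin around it, captures the RNA with biotinylated antisense DNA probes and sequences the DNA that comes along. Meg3 is an imprinted RNA transcribed from the maternal allele and known for restraining cell growth, in part through p53. Chromosome 11, which does not carry Meg3, holds the genes for p53 itself (Trp53), for the imprinted growth factor receptor adaptor Grb10 and for the Hoxb cluster. None of these genes was matched to a region, because no gene positions on mm9 were used here. Mouse chromosomes carry their centromere at the very start of the numbered sequence, and the DNA next to it is known for satellite repeats and duplicated segments. Sequence of the regions was not analysed here.

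Chromosome 11 carried 4.93 regions per Mb of the span between its first and last listed region (95% exact Poisson interval 4.54 to 5.35, counting error only). The other 19 nuclear chromosomes together carried 3.44 per Mb (3.37 to 3.52), so chromosome 11 stood at 1.43 times their density. Its share of the nuclear regions was 6.51% (6.01 to 7.04, 95% exact Clopper-Pearson interval), while its span made up 4.64% of the nuclear total. The cluster made up little of this, since without the 20 regions the density was 4.77 per Mb (4.39 to 5.18). In the order of the 20 chromosomes, 11 came second with and without the cluster, behind chromosome 1. Its interval overlapped those of chromosomes 1 (5.00 to 5.66), 17 (4.07 to 4.95), 19 (3.96 to 5.07) and 5 (4.13 to 4.81), so its place among these neighbours is not fixed by the counts. The list was chosen with these densities known, and no test is attached to them.

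**Figure D1:**
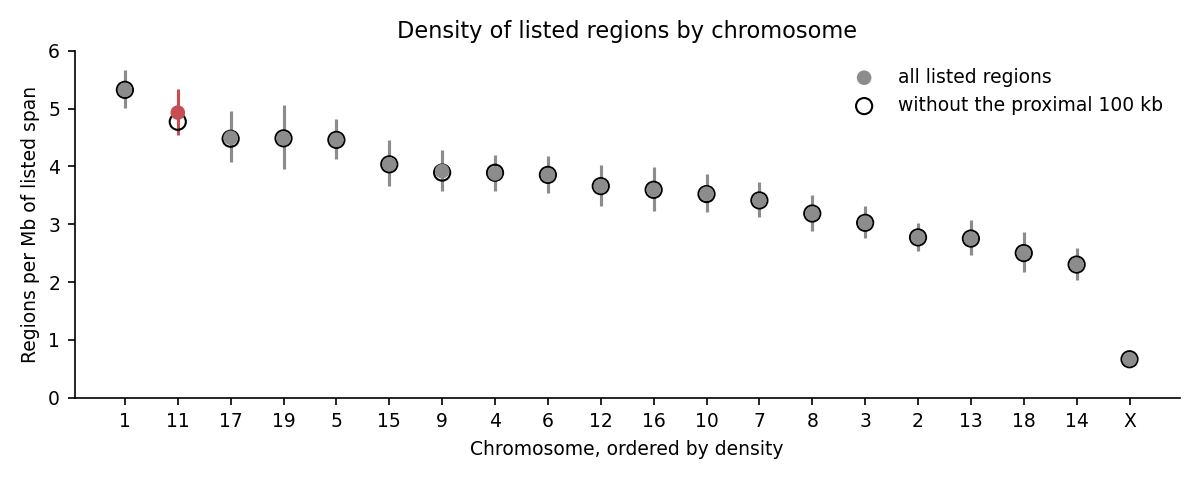
Regions per Mb of listed span (vertical axis) on each nuclear chromosome (horizontal axis, ordered by density), with bars for 95% exact Poisson intervals. Chromosome 11, in red, lies at 4.93 per Mb, and its open circle, without the proximal cluster, at 4.77.

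At a length of 89.6 kb, the proximal cluster was the densest stretch of the chromosome, with 20 regions against at most 6 outside it. Its 20 regions ran from 3001671 to 3091278, a stretch of 89.6 kb. Their density of 223 regions per Mb (136 to 345) was 46.8 times that of the rest of the chromosome. The cluster was picked with these positions known, and its own outermost members set its length. Its density, ratio and interval therefore describe a selected stretch and test nothing. The 20 regions covered 3765 bp, or 4.20% of the stretch, against 0.0924% over the rest of the chromosome. The cluster is thus a set of separate short regions and not 1 continuous block. The first of them is also the first listed region of the chromosome. The last cluster member spans 3091099 to 3091278, and the next region, at 3249381 to 3249665, follows after an empty stretch of 158102 bp. Only 4 further regions lie between the cluster and 4 Mb.

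Inside the cluster the regions were unevenly spaced. Members 1 and 2, counted from the centromeric side, span 3001671 to 3001802 (132 bp) and 3004373 to 3004470 (98 bp). They are set off from the other 18 by 22859 bp, the longest gap in the cluster. Of the 19 gaps between neighbours, 5 were under 1 kb, 14 under 5 kb and 18 under 10 kb, with a median of 3.02 kb. A gap limit of 20 kb would therefore split the cluster into its first 2 members and a run of 18.

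The 18 regions open with a region of 100 bp at 3027330 to 3027429 and one of 376 bp at 3031447 to 3031822. A tight group of 5 follows, from 3036473 to 3040169, in which the regions cover 26.0% of 3697 bp. It starts with a wide region of 422 bp (3036473 to 3036894), and gaps of 402 and 203 bp lead to narrower regions of 137 bp (3037297 to 3037433) and 152 bp (3037637 to 3037788). The group closes with regions of 85 bp (3039048 to 3039132) and 166 bp (3040004 to 3040169), which lie 871 bp apart. In this group the widest region thus comes first and the others are at most 166 bp wide.

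After 9867 empty bases comes a pair, 69 bp wide at 3050037 to 3050105 and 127 bp wide at 3052074 to 3052200. The first of these is the narrowest member of the cluster. A second tight group, of 3 regions from 3059860 to 3061895, covers 45.6% of 2036 bp. Its first member, at 3059860 to 3060375, is the widest of the cluster with 516 bp. Gaps of 894 and 213 bp then lead to regions of 227 bp (3061270 to 3061496) and 186 bp (3061710 to 3061895). Both tight groups therefore begin with their widest region, of 422 and 516 bp, and continue with 2 narrower ones that are separated by 203 and 213 bp.

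The centromere-distal end of the cluster is more loosely and evenly filled. Its 6 members are 99 bp (3064915 to 3065013), 140 bp (3073175 to 3073314), 149 bp (3077049 to 3077197), 173 bp (3082193 to 3082365), 231 bp (3085231 to 3085461) and 180 bp (3091099 to 3091278) wide. No gap among them is under 2 kb. Starts of the corresponding first members of the tight groups, 3036473 and 3059860, lie 23 kb apart. Among the 190 pairwise distances between starts, the 2 kb bin from 22 to 24 kb held the most pairs (13), followed by 10 pairs each in 5 other bins. Pairs between members of the first and the second tight group are among these 13, so the count partly repeats the 23 kb offset. This bin was picked after the distances were seen, and whether sequence recurs at that interval was not tested.

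**Figure D2:**
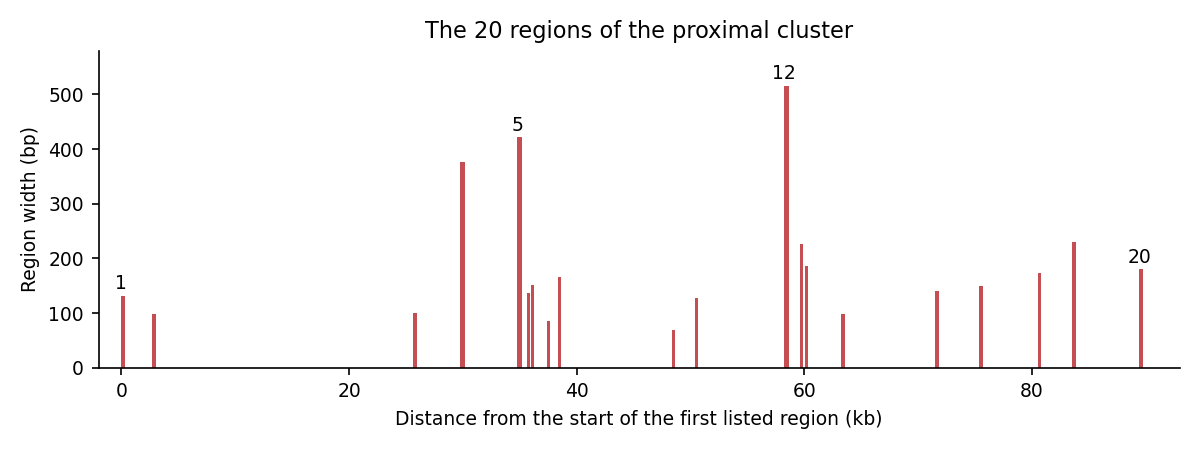
Width of each cluster member in bp (vertical axis) against the distance of its start from that of the first listed region in kb (horizontal axis). Bars of narrow regions are drawn wider than the region so that they can be seen. Numbers mark members 1, 5, 12 and 20, and members 5 and 12, the widest 2, open the tight groups.

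The start of the other chromosomes was much emptier, over a window chosen with the chromosome 11 cluster known. Between 3.0 and 3.1 Mb, 13 of the 20 nuclear chromosomes had no listed region, and the 6 others that had any held 12 together, with 4 on chromosome 9, 3 on chromosome 17, 2 on chromosome 10 and 1 each on chromosomes 4, 6 and 15. Regions this close to the start of the numbered sequence were thus listed on several chromosomes, but 20 of the 32 were on chromosome 11. Over the whole window from 3 to 4 Mb, chromosome 11 had 24 regions, and the other chromosomes had a median of 3 and at most 9, on chromosome 12.

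The most similar stretch elsewhere lies inside chromosome 1, away from the centromere, where 11 regions were listed between 90113564 and 90155407. That stretch is shorter, at 41.8 kb, with 2.63 regions per 10 kb beside 2.23 per 10 kb over the chromosome 11 cluster. These densities are over unlike lengths, and that of the cluster includes its gap of 22859 bp, so they do not rank the stretches. At the same length of 89.6 kb, chromosome 1 held at most 11 regions and chromosome 11 held 20. Its gaps ran from 373 to 8242 bp, with a median of 4869 bp, against 203 to 22859 bp and a median of 3019 bp in the cluster. Gaps thus spread over a wider range in the chromosome 11 cluster, at both ends. On every chromosome other than 1 and 11, no stretch of 89.6 kb held more than 5 regions.

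Beyond the cluster, the chromosome fell by average density into a sparse proximal part and a dense distal part, and the change lay near 55 Mb. The boundary of 55 Mb was chosen after the windows had been seen. From the end of the cluster at 3.1 Mb to 55 Mb 146 regions were listed at a density of 2.81 per Mb (2.38 to 3.31, 95% exact Poisson interval). Beyond 55 Mb there were 420, or 6.28 per Mb (5.70 to 6.91), 2.23 times as dense. Thus 71.7% of the regions lay on 56.2% of the span. Moving the boundary to 50 or 60 Mb gave ratios of 2.23 and 1.99.

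Windows of 5 Mb show the change. The 10 windows from 5 to 55 Mb held 7 to 23 regions each, with a median of 12. Along them the counts were 13, 11, 11, 12, 11, 23, 7, 17, 12 and 18. Only the window from 30 to 35 Mb, with 23, reached the range of the distal windows, and that from 35 to 40 Mb, with 7, was the emptiest of the chromosome.

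The 13 windows from 55 to 120 Mb held 20 to 45 regions, with a median of 30. In order their counts were 33, 22, 30, 32, 42, 25, 26, 26, 34, 45, 30, 20 and 41. The window from 100 to 105 Mb was the fullest, with 45 regions (95% exact Poisson interval 32.8 to 60.2), ahead of 75 to 80 Mb with 42 (30.3 to 56.8) and 115 to 120 Mb with 41 (29.4 to 55.6). These 3 intervals overlap. Dense and thinner windows alternate over the distal part, which has no steady rise towards the end of the chromosome. The end windows are incomplete, with 31 regions from the first region to 5 Mb, 20 of them in the cluster, and 14 from 120 Mb to the last region.

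The part beyond 94 Mb belongs to this dense stretch and does not begin it. The boundary of 94 Mb was also chosen with the values known, so no test is attached to it. This distal part held 192 regions, 32.8% of the chromosome's total (29.0 to 36.7, 95% exact Clopper-Pearson interval), and spans 23.4% of the chromosome's listed length. Its density of 6.90 per Mb (5.96 to 7.94) was 1.68 times that from the cluster to 94 Mb, 4.11 per Mb (3.71 to 4.55). Most of this contrast came from the sparse part, because the 228 regions between 55 and 94 Mb already stood at 5.85 per Mb (5.11 to 6.66). Against these the part beyond 94 Mb was 1.18 times as dense, and the 2 intervals overlap. The last region before the boundary spans 93991696 to 93991784 and the first beyond it 94143032 to 94143377.

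The distal 27.8 Mb of the other chromosomes give a scale for this part. Chromosome 4 had 7.65 regions per Mb there, chromosome 1 had 7.0 and chromosome 15 had 6.39, beside the 6.90 of chromosome 11 and a median of 4.06 over the other 19 chromosomes. High distal densities were thus also listed on these 3. Over the density of the whole chromosome, the distal part of chromosome 11 stood at 1.40. This was behind chromosomes 4 (1.97), 15 (1.58), 2 (1.48) and 8 (1.44), while chromosome 1 stood at 1.32. Splitting the span of each chromosome in the middle, with regions at 3.0 to 3.1 Mb left out, gave 371 regions on the distal side of chromosome 11 and 195 on the proximal side. The ratio of 1.90 was second to that of chromosome 15 (1.95) and close to that of chromosome 4 (1.86), while the median of the other 19 was 1.22.

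In windows of 1 Mb the same division appeared. The 51 windows from 4 to 55 Mb held a median of 3 regions (range 0 to 8), the 39 from 55 to 94 Mb a median of 5 (1 to 14) and the 28 beyond 94 Mb a median of 6.5 (2 to 16). The sparse part was not uniform. Its windows from 4 to 5, 31 to 32, 32 to 33 and 43 to 44 Mb held 7 regions each, and that from 51 to 52 Mb held 8. These counts lie above the median of 5 between 55 and 94 Mb. Windows with 0 or 1 region numbered 18, of which 16 lay before 55 Mb. Of the 9 windows with 10 or more regions, 8 lay beyond 55 Mb, and the other is the window of the cluster.

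Only 3 of the 119 windows of 1 Mb were empty, 23 to 24, 37 to 38 and 38 to 39 Mb. This is 2.52% of windows, against 3.39% to 56.5% on the other chromosomes. From 39 Mb to the end at 122 Mb, 83 windows in a row each held at least 1 region. The longest such run on another chromosome was 62 windows, on chromosome 9, and the median over the other 19 was 34. With windows shifted by 0.5 Mb, 7 windows of chromosome 11 (5.83%) were empty. Chromosomes 19 (3.39%), 1 (4.12%) and 6 (5.44%) then had lower shares, so its place in this order depends on where windows start. The shift on the other chromosomes was added after seeing the data. The longest filled run was then 74 windows on chromosome 11 and 62 on chromosome 9, the next longest.

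**Figure D3:**
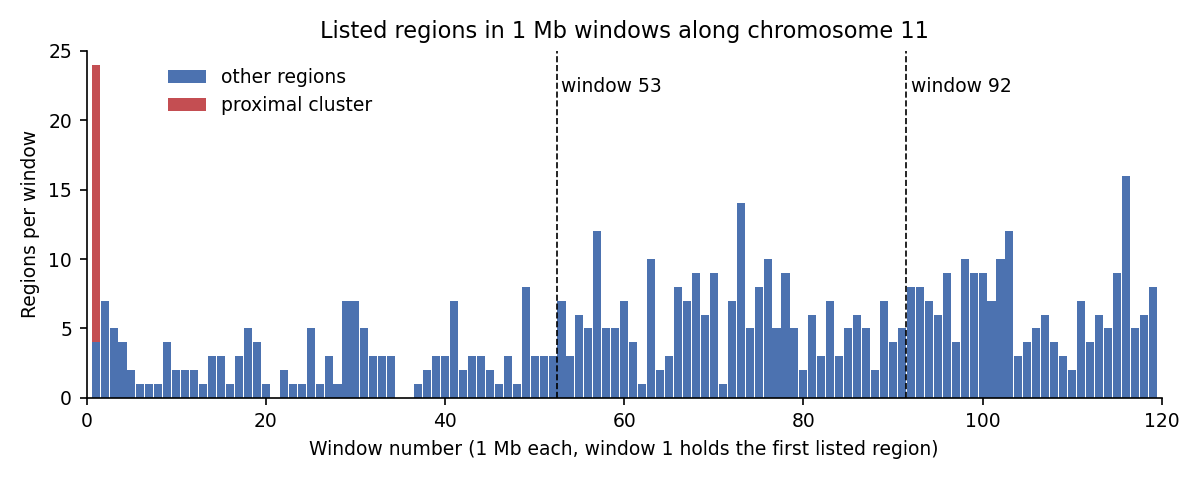
Number of listed regions (vertical axis) in each 1 Mb window of chromosome 11 (horizontal axis, numbered from the window of the first listed region). The cluster, in red, fills 20 of the 24 in window 1, and dashed lines mark the starts of window 53 (55 Mb) and window 92 (94 Mb), with low counts before window 53 and higher counts after it.

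The 5 fullest windows of 1 Mb were led by that of the cluster. The window from 118 to 119 Mb came next, with 16 regions between 118067051 and 118904893. They were 57 to 349 bp wide, and their gaps ran from 4.33 to 183 kb, so as a set they were spread more widely than the cluster. A closer run inside this window, picked after the values were seen, spans 118227261 to 118263938, with gaps of 14481, 6937, 10044 and 4334 bp. The window from 75 to 76 Mb held 14 regions, 57 to 580 bp wide, and contains 2 of the close pairs described below. Windows from 59 to 60 Mb and from 105 to 106 Mb held 12 each. The variance of the counts over their mean was 2.59 in windows of 1 Mb and 2.02 without the cluster, beside a median of 1.95 over the other 19 chromosomes. Without its cluster, chromosome 11 thus had about the patchiness of the middle chromosome at this scale.

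Outside the cluster no stretch of 89.6 kb, the length of the cluster, held more than 6 regions. The tightest stretch with 6, picked after the values were seen, lies beyond 94 Mb. In it 6 regions, 56 to 139 bp wide, were listed between 104382047 and 104459493. The first 5 of these fell within 104382047 to 104396193, with gaps of 665, 1107, 4099 and 7762 bp, and the sixth followed after 63195 bp. These regions were all under the chromosome's median width of 158 bp.

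Long stretches without a region took up little of chromosome 11 and lay in its proximal part. Of the 585 gaps between consecutive regions, 11 were 1 Mb or longer, and all 11 ended before 48909330. Together they took up 14.0% of the span, against 9.12% on chromosome 19, the 1 chromosome with less, and a median of 28.1% over the other 19. The longest, 2.67 Mb, ran from 36963969 to 39629375, and 7 other chromosomes had a shorter longest stretch, so its length did not stand apart. It was followed by stretches of 1.80 Mb (17095409 to 18898999), 1.76 Mb (47145924 to 48909329), 1.75 Mb (22620761 to 24370687) and 1.44 Mb (7267119 to 8710639).

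The last 72.9 Mb of the chromosome held no stretch of 1 Mb or more, and the longest there was 982 kb, from 73247414 to 74229008. On the other chromosomes the tail free of such a stretch measured at most 32.8 Mb, on chromosome 4. The median gap was 180 kb in the sparse part (quartiles 96.5 and 473 kb) and 115 kb beyond 55 Mb (39.9 and 219 kb). Where only wider regions were kept, long stretches did appear beyond 55 Mb, 3 of 16 for regions of 100 bp or more and 8 of 25 for regions at or above the median nuclear width of 164 bp.

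**Figure D4:**
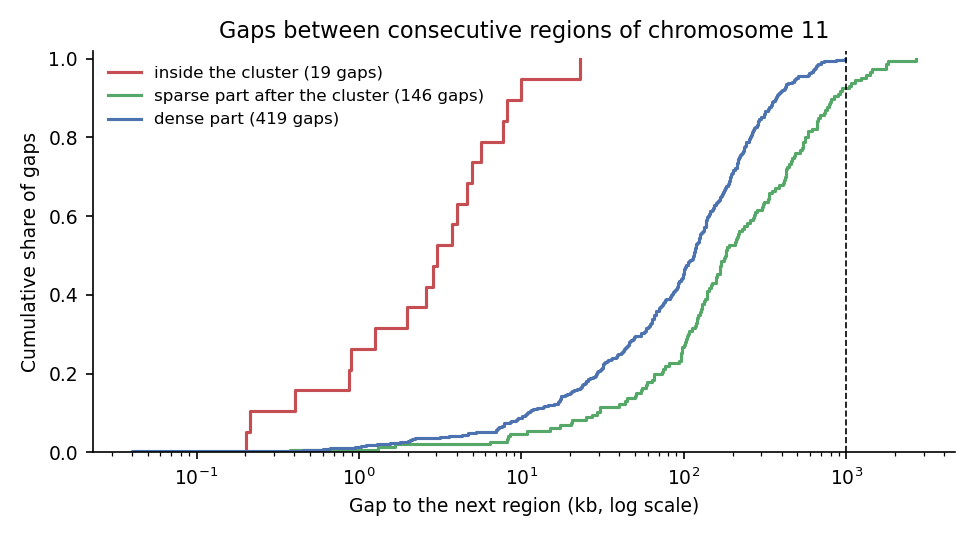
Cumulative share of gaps (vertical axis) against gap length in kb on a log scale (horizontal axis) inside the cluster, in the sparse part between the cluster and 55 Mb, and in the dense part beyond 55 Mb. The dashed line marks 1 Mb. The medians are 3.02, 180 and 115 kb, and of the 3 curves the sparse part is the one that crosses the line.

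Measured to its nearest neighbour, a chromosome 11 region lay at a median of 64.7 kb (95% exact interval of the median 54.7 to 74.1) and 67.3 kb (58.6 to 80.6) without the cluster. The median was 74.0 kb (71.9 to 76.1) on the other nuclear chromosomes, so the intervals overlap. Neighbours under 10 kb away were found for 102 regions (17.4%), against 10.5% elsewhere, and still for 82 of 566 (14.5%) without the cluster. Shares of close neighbours were not adjusted for density, which on chromosome 11 was 1.43 times that of the others. Neighbours under 1 kb away were found for 22 regions (3.75%), the highest share of the 20 chromosomes, against 1.59% elsewhere. Of these 22, 8 were in the cluster, and without it the share was 2.47%, behind chromosomes 16 (2.92%), 7 (2.75%) and 5 (2.72%).

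These 22 regions formed 12 pairs of neighbours, 5 in the cluster and 7 outside it. The closest pair of the chromosome, 75336270 to 75336361 and 75336402 to 75336548, was separated by 40 bp. A second pair in the same 1 Mb, 75697817 to 75697933 and 75698384 to 75698440, lay 450 bp apart. The pair at 80672428 to 80672576 and 80672843 to 80673218 was separated by 266 bp. These 3 pairs all lie between 75 and 81 Mb.

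The other pairs outside the cluster were single events along the chromosome. In the sparse part there was 1, at 17086549 to 17086665 and 17087044 to 17087167 (378 bp apart), shortly before the second longest empty stretch. Beyond 94 Mb there were 3, with 600 bp between 95251713 to 95252031 and 95252632 to 95252789, 665 bp between 104382047 to 104382151 and 104382817 to 104382902, and 950 bp between 105929630 to 105929751 and 105930702 to 105930806.

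Median widths lay close together across the parts that differed in density. Over chromosome 11 the median was 158 bp (95% exact interval of the median 145 to 173, quartiles 108 and 246), against 164 bp (161 to 167) on the other nuclear chromosomes. The cluster had a median of 150.5 bp (127 to 186), the sparse part 161 bp (138 to 193), and the dense part beyond 55 Mb 155.5 bp (141 to 173). All of these intervals overlap, and a width difference between the parts was not tested. Widths under 100 bp made up 4 of 20 regions in the cluster (95% exact Clopper-Pearson interval of the share 5.73% to 43.7%), 19.2% in the sparse part (13.1 to 26.5) and 20.2% in the dense part (16.5 to 24.4).

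**Figure D5:**
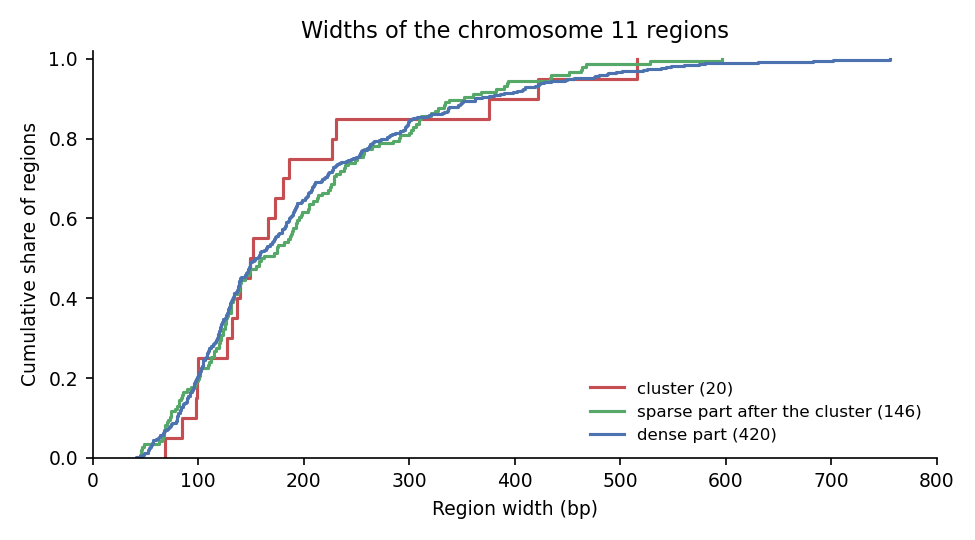
Cumulative share of regions (vertical axis) against region width in bp (horizontal axis) for the cluster, the sparse part between it and 55 Mb, and the dense part beyond 55 Mb. The 3 curves run close together, with medians of 150.5, 161 and 155.5 bp.

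Of the 17 regions of 500 bp or more, 14 (82.4%) were beyond 55 Mb, 2 in the sparse part and 1 in the cluster, where 420 of all 586 regions (71.7%) lay beyond 55 Mb. Such regions made up 1.37% of the sparse part (95% exact Clopper-Pearson interval 0.166 to 4.86) and 3.33% of the dense part (1.83 to 5.53), and these intervals overlap. The widest spans 74661638 to 74662393 (756 bp). Next came 70161314 to 70162015 (702 bp), 74229009 to 74229691 (683 bp) and 80133467 to 80134097 (631 bp). The region of 683 bp closes the longest empty stretch of the dense part. Among the 10 widest, 6 fell between 70 and 82 Mb, a span that holds 88 regions or 15.0% of the chromosome's, and whose median width was 156 bp. The span was chosen after the widths were seen.

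The remaining members of the 10 widest were 596 bp (5972094 to 5972689), 589 bp (72339108 to 72339696), 580 bp (75542756 to 75543335), 575 bp (91761425 to 91761999), 560 bp (100460245 to 100460804) and 548 bp (115277327 to 115277874). The first of these is the 1 member of the 10 that lies before 55 Mb. At the other extreme, the narrowest region was 41 bp, at 62445207 to 62445247. It was followed by regions of 45 bp at 18899000 to 18899044 and 105427913 to 105427957, and of 46 bp at 20817251 to 20817296 and 27731437 to 27731482. Of these 5 narrowest regions 3 lie in the sparse part, and that at 18899000 closes the second longest empty stretch. The last listed region of the chromosome spans 121840102 to 121840231.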

How the data were processed

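Positions come from 1 deposited list for clone M5, which has no value per library. The build is mm9, per the submitters' processing notes. The caller, its threshold, the aligner, the use of each library and the meaning of unique in the name are not given in the sources used here, so depth is unknown. The deposited score columns hold 0 in all 9010 rows and the names n/a, so no region has a height or p-value. Regions on chromosome 11 do not overlap and none is duplicated.

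Starts were converted to count from 1, and width is end minus start as deposited. Windows count a region by its midpoint. Gaps are the bases between neighbours. Spans join the outermost listed regions of a chromosome and keep assembly gaps. Intervals are 95% exact Poisson for counts, Clopper-Pearson for shares and order-statistic for medians. They treat regions as independent and cover counting error only. Python 3.11.15, NumPy 2.4.6, pandas 2.3.3, SciPy 1.17.1 and matplotlib 3.10.9 were used, and the functions were tested on simulated data. No test was made.

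Named items are all cluster members, the 10 widest and 5 narrowest regions, pairs under 1 kb apart, the 5 longest empty stretches, the first and last region, the 5 fullest 1 Mb windows and all 5 Mb windows. Members and lists were chosen with earlier results of these data known. Planned gene and sequence descriptions need mm9 references and were not run.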

Additional observations from a re-analysis of the deposited data

How the results depend on the processing

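Of 37 alternatives, 23 stayed within the 95% interval of the reported value or, for counts, within 1.5 times of it. The density of 4.93 per Mb fell to 3.95 for regions of 100 bp or more and 2.38 for those at or above the median width. The median nearest distance rose to 90.1 and 124 kb, and the median width to 189 and 252 bp, as such a limit removes narrow regions. At the second limit, stretches of 1 Mb or more numbered 25 and the cluster held 9 regions. A count from 2 Mb left 1 stretch. Shifted windows of 1 Mb left 7 empty. Ending the cluster at the first gap over 20 kb left 2 regions, of median width 115 bp. A distal part from 100 Mb held 25.6% of regions. The density ratio was 2.23 at a boundary of 55 Mb instead of 1.68 at 94 Mb, and both boundaries were chosen with the values known. Between the cluster and 55 Mb against beyond it, the ratio was 2.17 to 2.22 under the width limits and joining of close regions. No paired analysis was possible because the 6 libraries stand alone in their groups and the list gives none of them a value. With no read depth given, sites missed by the caller cannot be counted.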
